A study of Arabidopsis thaliana with 6 samples.

Results

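The primary transcripts of miR159a and miR159b were described nucleotide by nucleotide from base calls of chemically probed RNA. Members were all rows listed under these 2 amplicon names in each of 6 base-call tables, which gave 290 positions for miR159a and 318 for miR159b, together 608 of the 5550 positions of 19 amplicons (16 primary microRNAs and 3 mRNAs). The genes are MIR159a (AT1G73687) and MIR159b (AT1G18075). The study probed leaves of 3-week-old Arabidopsis thaliana plants, of wild-type Col and of the chr2 mutant of a chromatin-remodelling ATPase, with 1% dimethyl sulfate (DMS) for 30 min or with water as mock. Each genotype had 2 DMS libraries and 1 mock library of nuclear RNA, copied with primers specific to each target. The question in the series title is whether CHR2 remodels the fold of primary microRNAs. The labels do not name the chr2 allele, no amplicon covers CHR2, and the replicates are not said to be different plants. The p-values therefore reflect the spread among the libraries, which may be technical.

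The miR159 family represses GAMYB-like transcription factors such as MYB33 and MYB65 and so acts in leaf growth and anther development. Each precursor folds into an unusually long hairpin with the miRNA near its base, and the plant Dicer enzyme DCL1 is known to cut the related miR159 and miR319 hairpins from the loop towards the base in several steps. DMS methylates the pairing face of unpaired A and C, and the reverse transcriptase then writes another base there, so a high share of mismatches marks an A or C that was open to the reagent.

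The copies carry miRNAs that differ in the last base. They are printed as DNA letters read from the base-call tables, because the pairing of the miRNA with its opposite strand is where the highest rates of miR159a lay; the seed, bases 2 to 8, is in capitals and is identical.
miR159a miRNA: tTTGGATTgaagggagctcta
miR159b miRNA: tTTGGATTgaagggagctctt
The strands predicted to pair with them, the miRNA* strands, are these.
miR159a miRNA*: tagagctccttaaagttcaaa
miR159b miRNA*: aagagctccttgaagttcaa
From the first base of the miRNA* to the last of the miRNA the hairpin measured 182 nt in miR159a (positions 38 to 219 of the amplicon) and 186 nt in miR159b (40 to 225). In the next lines capitals mark each A or C whose mismatch rate was 1% or more in all 4 DMS libraries, which shows where the repeatable signal lay.
miR159a hairpin: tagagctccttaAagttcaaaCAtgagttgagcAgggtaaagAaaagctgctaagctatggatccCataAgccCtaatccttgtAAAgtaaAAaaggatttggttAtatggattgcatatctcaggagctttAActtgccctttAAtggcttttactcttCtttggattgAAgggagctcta
miR159b hairpin: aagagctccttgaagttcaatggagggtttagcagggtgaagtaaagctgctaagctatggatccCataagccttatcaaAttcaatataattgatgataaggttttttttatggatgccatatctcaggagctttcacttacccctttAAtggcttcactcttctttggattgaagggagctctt
One more line repeats the miR159b hairpin with capitals at each A or C that reached 1% in at least 1 DMS library, to show how much of its signal did not return in every library.
miR159b hairpin: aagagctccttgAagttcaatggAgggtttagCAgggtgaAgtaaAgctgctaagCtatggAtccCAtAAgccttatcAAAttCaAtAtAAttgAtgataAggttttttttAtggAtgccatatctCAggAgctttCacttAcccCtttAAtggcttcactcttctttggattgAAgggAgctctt
The hairpins aligned over 175 columns, of which 152 (86.9%) were identical, against 73.5% outside the hairpin. The longest stretches without a difference were 30 nt on the 5′ arm beside the loop, 27 nt over the miRNA, then 17 and 14 nt on the 3′ arm. The predicted folds had free energies of −83.7 kcal/mol (miR159a) and −104.6 kcal/mol (miR159b). They placed 71.4% and 76.3% of the hairpin in pairs, and ended in a loop of 11 nt (positions 120 to 130) in miR159a and of 3 nt (127 to 129) in miR159b.

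The values are mismatch rates, the share of base calls at a position that differ from the reference base, at the 129 A and C positions of miR159a and the 147 of miR159b. Median coverage was 48110 to 76452 base calls in miR159a and 33975 to 104489 in miR159b, with the lowest in replicate 2 of chr2 DMS and the highest in replicate 2 of Col DMS. These are PCR products mixed in equal amounts, with no molecular identifiers mentioned, so depth does not measure RNA abundance and intervals on a rate cover counting error only. With mock treatment, no A or C exceeded 0.802% in miR159a or 0.492% in miR159b. The first and last 26 nt of each amplicon, near the primers, stayed at or below 0.345% with DMS and were left out of region means.

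MiR159a gave a pattern that returned from library to library, and miR159b mostly did not. In miR159a, 33 of 129 A/C positions reached 1% in all 4 DMS libraries, and in miR159b 9 of 147 did, beside 16.8% of the A/C positions of all amplicons. Of the positions that reached 1% in at least 1 DMS library, the share that did so in all 4 was 55.0% in miR159a (33 of 60), whereas it was 13.8% in miR159b (9 of 65). The share in miR159a ranked 4 among the 19 amplicons, behind only the 3 mRNAs (65.9% to 85.9%), while the other 14 primary microRNAs had 0 to 43.2% with a median of 9.67%. No test was made of this ranking. Positions at 1% in a single library numbered 14 in miR159a and 24 in miR159b, and the fold predicted 12 and 18 of these to be paired. Of all A/C positions inside the primer ends, it predicted 64 of 108 and 79 of 120 to be paired. Of the 33 positions at 1% in all 4 libraries of miR159a, 27 were predicted unpaired, as were 7 of the 9 in miR159b.

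**Figure D1:**
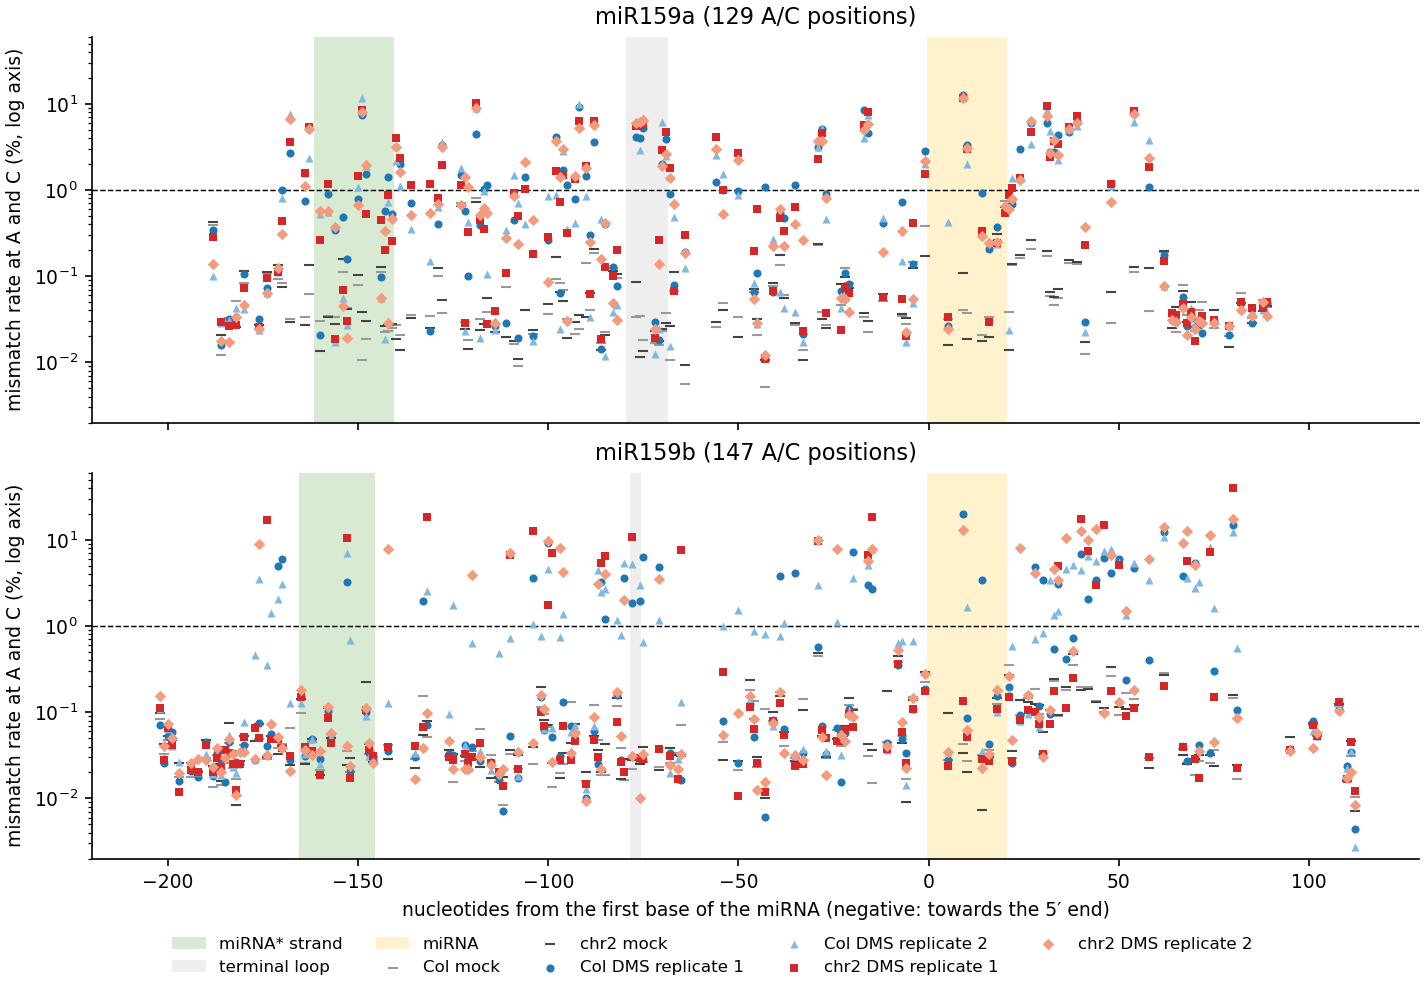
Mismatch rate at every A and C of miR159a (above) and miR159b (below) in the 4 DMS and 2 mock libraries, on a log axis, against the distance in nt from the first base of the miRNA; shading marks the miRNA*, terminal loop and miRNA, the dashed line 1%, and rates of 0 are not drawn. In miR159a the 4 DMS libraries lie close together at most high positions, whereas in miR159b many positions are high in some libraries and near the mocks in others.

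**Figure D2:**
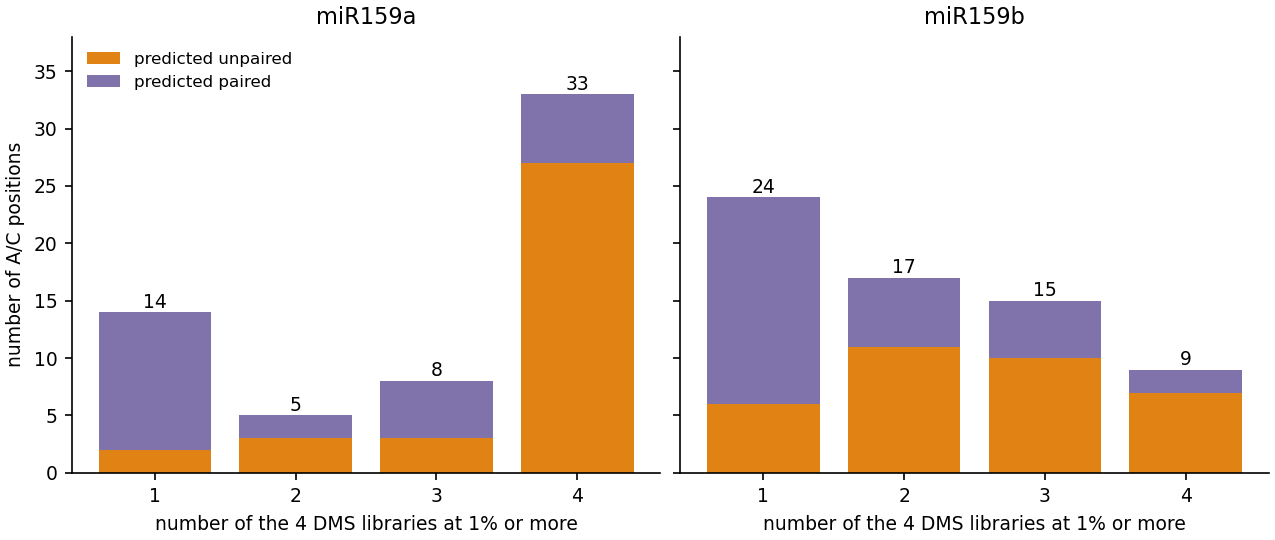
Number of A/C positions of each precursor by how many of the 4 DMS libraries reached 1%, split by predicted pairing. MiR159a has 33 positions in the class of 4 libraries and 14 in the class of 1, and miR159b has 9 and 24.

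The libraries differed in how the miR159b signal was built. In miR159a each DMS library had 41 to 48 positions at 1% or more, with a median rate among these of 2.95% to 3.37%. In miR159b the number was 34 and 49 in Col and 23 and 33 in chr2, and the median rate of those positions was 3.96% and 3.41% in Col and 7.48% and 7.78% in chr2. The commonest wrong base made up a median of 73.5% to 81.5% of the mismatches at such positions of miR159a. In miR159b it made up 99.3% in Col replicate 1, 78.5% in Col replicate 2, 99.8% in chr2 replicate 1 and 99.4% in chr2 replicate 2, so in 3 of the 4 libraries most high positions carried nearly a single substitution. Across A/C positions inside the primer ends, Spearman's rho between DMS libraries was 0.789 to 0.862 in miR159a (108 positions) and 0.521 to 0.599 in miR159b (120 positions); the points share base composition and amplicon and are no replicates.

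The test against mock asked which A and C positions carried a mismatch rate above that without the reagent. The quasi-likelihood test of edgeR, with p adjusted by Benjamini-Hochberg over all A/C positions, put 23 of 127 tested positions of miR159a above mock in Col and 21 in chr2, 19 of them in both, against 13.2% of all tested positions in Col and 13.0% in chr2. Of 144 positions of miR159b, 2 passed in Col and 1 in chr2. The median log2 fold over mock was 3.17 in Col and 3.50 in chr2 for miR159a, and 1.58 and 0.18 for miR159b, beside 0.74 and 0.75 over all positions. The 25 positions of miR159a called in at least 1 genotype comprised 22 A and 3 C, from 77 A and 52 C in the amplicon, and 17 were predicted unpaired. The positions at 1% or more in all 4 DMS libraries comprised 21 A and 12 C. At an unadjusted p under 0.05, in either direction, the counts were 52 and 57 of 127 in miR159a and 18 and 12 of 144 in miR159b. The share of all positions at that level was not counted. The adjusted calls sit at the edge of the threshold: all were lost without any one of the 4 DMS libraries and with library totals taken from coverage. DESeq2 called 63 and 64 positions in miR159a and 44 and 37 in miR159b, where it called 37.7% and 37.8% of all positions.

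The miRNA duplex of both copies held one internal loop, of 2 nt on each strand, opposite bases 9 and 10 of the miRNA, and the highest rates of miR159a lay there. Position 208 of miR159a, the A at base 10 of the miRNA, had 12.6% and 12.5% in Col and 11.5% and 11.6% in chr2, against 0.0403% (95% Wilson interval 0.0273 to 0.0595%) and 0.110% (0.0844 to 0.144%) in the mocks. The spread over the 4 DMS libraries was small, with a mean of 12.1% ± 0.558 (SD, n = 4). It was above mock in both genotypes, by log2 folds of 8.27 in Col (edgeR, adjusted p 0.0382) and 6.71 in chr2 (adjusted p 0.0482). Across the loop, position 50 of the miRNA* had 7.49% and 11.6% in Col and 8.51% and 8.03% in chr2, against 0.0106% and 0.0383% in the mocks, and also exceeded mock in both genotypes. The A next to it, position 49, is predicted unpaired too and stayed between 0.663% and 1.44%. Position 209, the A at base 11 of the miRNA and predicted paired, had 2.02% to 3.35% and was called in both genotypes. The A at position 58, the last base of the miRNA*, is predicted paired with the first base of the miRNA. It had 0.522% and 0.503% in Col and 0.254% and 0.466% in chr2, against 0.0248% and 0.0276% in the mocks. Only Col passed the threshold against mock (edgeR, adjusted p 0.0455 in Col and 0.0559 in chr2). The genotypes did not differ there in the direct test (edgeR, adjusted p 0.998). Elsewhere in the miRNA of miR159a rates were low, from 0.0246% to 0.914% at the other 5 A and C.

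The same internal loop in miR159b was high in some libraries and at the level of the mocks in others. Position 214, base 10 of its miRNA, had 19.8% and 13.6% in Col and 0.136% and 13.2% in chr2, against 0.0423% and 0.0333% in the mocks. Coverage there was 61100 base calls in chr2 replicate 1, the library with the low value. Position 52 of the miRNA*, opposite, had 3.24% and 7.03% in Col and 10.4% and 0.0402% in chr2. Thus replicate 1 of chr2 was low on the miRNA strand and high on the miRNA* strand, and replicate 2 the other way round. Neither position was called against mock (edgeR, adjusted p 0.397 and 0.429 for position 214). Position 219, base 15 of the miRNA and predicted paired, reached 3.39% in Col replicate 1 and was at most 0.0351% in the other 3 DMS libraries.

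Towards the loop, the terminal loop of miR159a had a raised mean rate in every DMS library. Its mean A/C rate was 2.75% and 3.46% in Col and 3.58% and 3.33% in chr2, against 0.0256% and 0.0292% in the mocks. The 3 adjacent A at positions 122, 123 and 124 had 2.91% to 6.79% and were above mock in both genotypes. Of the 7 A and C of this loop, 5 reached 1% in all 4 DMS libraries. Position 127 stayed at the mock level, with 0.0126% to 0.0293% against 0.0166% and 0.0229% in the mocks. The loop of miR159b has 2 A or C, with means of 1.90% and 4.12% in Col and 5.45% and 0.0204% in chr2; the last library did not exceed its mock, at 0.0264%. On the 5′ arm of miR159a near the loop, position 107 is an A predicted to pair with position 142, at the edge of a bulge. It had 9.15% and 10.0% in Col and 6.33% and 5.18% in chr2, the highest rate of any predicted paired position called in miR159a. Its counterpart in miR159b, position 109, had 0.130% and 1.39% in Col and 0.0700% and 4.26% in chr2.

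Both copies were reactive at a pair of adjacent A on the 3′ arm, between the loop and the miRNA, inside the 14 nt shared stretch. The first, position 182 of miR159a, had 8.56% and 3.96% in Col and 5.61% and 4.94% in chr2. Its counterpart, position 189 of miR159b, had 3.02% and 5.06% in Col and 6.69% and 5.72% in chr2. This was the single aligned column above mock in both copies, with adjusted p of 0.0431 and 0.0457 in miR159a and 0.0366 and 0.0356 in miR159b (edgeR, Col and chr2). Only 2 positions of miR159b were called in at least 1 genotype, so few columns could pass in both copies. The second A had 4.62% and 7.40% in Col and 8.0% and 5.76% in chr2 at position 183 of miR159a. Its counterpart, position 190 of miR159b, had 2.73% and 7.84% in Col and 18.2% and 7.88% in chr2, every DMS library again far above its mocks of 0.0153% and 0.0362%. Further towards the loop the copies parted. Position 171 of miR159a, predicted unpaired, had 3.71% to 5.23% in the DMS libraries and was above mock in both genotypes, while position 177 of miR159b, the same A in the alignment but predicted paired, had 0.0511% to 0.0700% against 0.0512% and 0.0527% in its mocks.

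**Figure D3:**
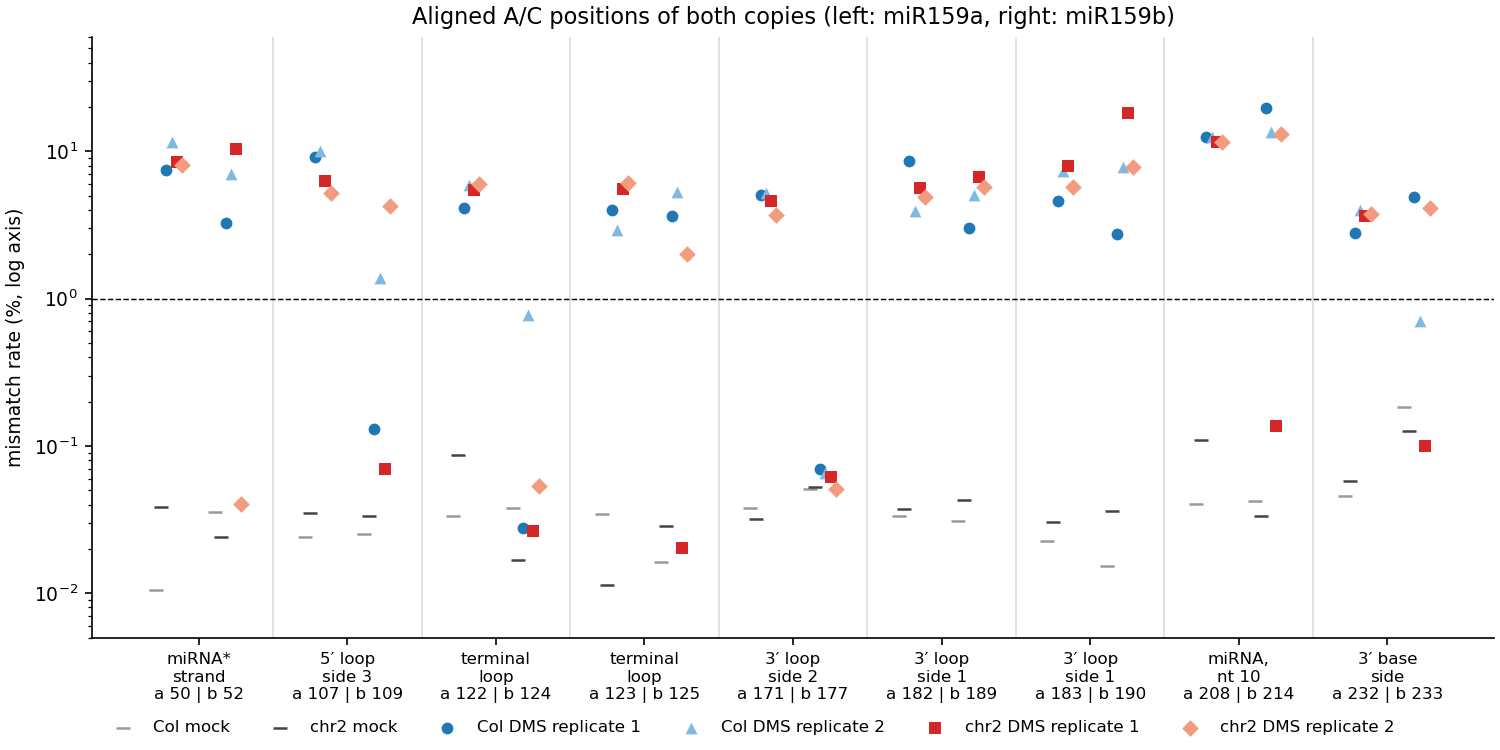
Mismatch rate (log axis) at the aligned columns of the highest called positions of miR159a where both copies hold the same base, miR159a at left and miR159b at right of each column, with 4 DMS and 2 mock libraries each and a dashed line at 1%; region names are those of miR159a. At base 10 of the miRNA the miR159a libraries sit between 11.5% and 12.6%, and those of miR159b at 13.2% to 19.8% but for 1 library at 0.136%.

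Over all 72 aligned hairpin columns with the same A or C, 3 were at 1% or more in all 4 DMS libraries of both copies, 11 in miR159a only, 1 in miR159b only and 57 in neither. Besides the adjacent A, the shared column was a C on the 5′ arm near the loop, predicted paired in both. It had 1.47% to 2.98% at position 103 of miR159a and 1.74% to 9.65% at position 105 of miR159b. When a column counted by 1% in at least 1 DMS library, 17 were shared, 17 were in miR159a only, 12 in miR159b only and 26 in neither. The copies' rates, averaged over the 4 DMS libraries, had a Spearman's rho of 0.324 and a Pearson's r of 0.648 across the 72 columns, and the mocks a rho of 0.708 in Col and 0.640 in chr2. These columns share sequence, library and base, so the values describe likeness only. Averaged over the columns, the rate was 1.41% in miR159a and 1.17% in miR159b.

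By mean rate, the highest region of each transcript lay on the 3′ side of the miRNA. The 21 nt after the miRNA of miR159a averaged 3.41% ± 0.146 over the DMS libraries (SD, n = 4), the highest mean of its 12 regions, and held 8 of its 33 positions at 1% in all libraries. By the median over positions the terminal loop came first, at 3.56% against 3.10%. The stretches from the miRNA to the 3′ primer end are printed because most of these positions are C in a run of pyrimidines; capitals again mark 1% or more in all 4 DMS libraries.
miR159a 3′ of the miRNA: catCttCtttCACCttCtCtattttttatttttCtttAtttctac
miR159b 3′ of the miRNA: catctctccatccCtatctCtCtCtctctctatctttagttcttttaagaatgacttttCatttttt
In miR159a the C at position 232 had 2.79% and 4.02% in Col and 3.65% and 3.76% in chr2, and was above mock in both genotypes. The aligned C of miR159b, position 233, had 4.86% and 0.707% in Col and 0.0999% and 4.15% in chr2. In miR159b the 3′ flank beyond that window was highest, at 5.04% ± 1.06 (SD, n = 4). It includes position 285, a C predicted paired, which had the highest rate seen in either precursor. Position 285 had 15.1% and 12.4% in Col and 39.5% and 17.5% in chr2. It stayed near 0.15% in the mocks, at 0.145% and 0.160%, yet did not pass the test (adjusted p 0.132 and 0.106). The lowest mean was that of window 3 from the miRNA duplex on the 3′ arm in both copies, at 0.841% ± 0.272 in miR159a and 0.235% ± 0.331 in miR159b (SD, n = 4). Window 3 spans 26 nt in miR159a, up to the loop, and 21 nt in miR159b, where window 4 lies before the loop. In miR159b it held 6 A or C, and its mocks had 0.0863% and 0.0691%. Without Col replicate 2 the value in miR159b was 0.0693%, where that library had 0.731%. By the median over positions other windows were lowest, window 2 of the 3′ arm in miR159a (0.277%) and window 2 of the 5′ arm in miR159b (0.0308%).

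**Figure D4:**
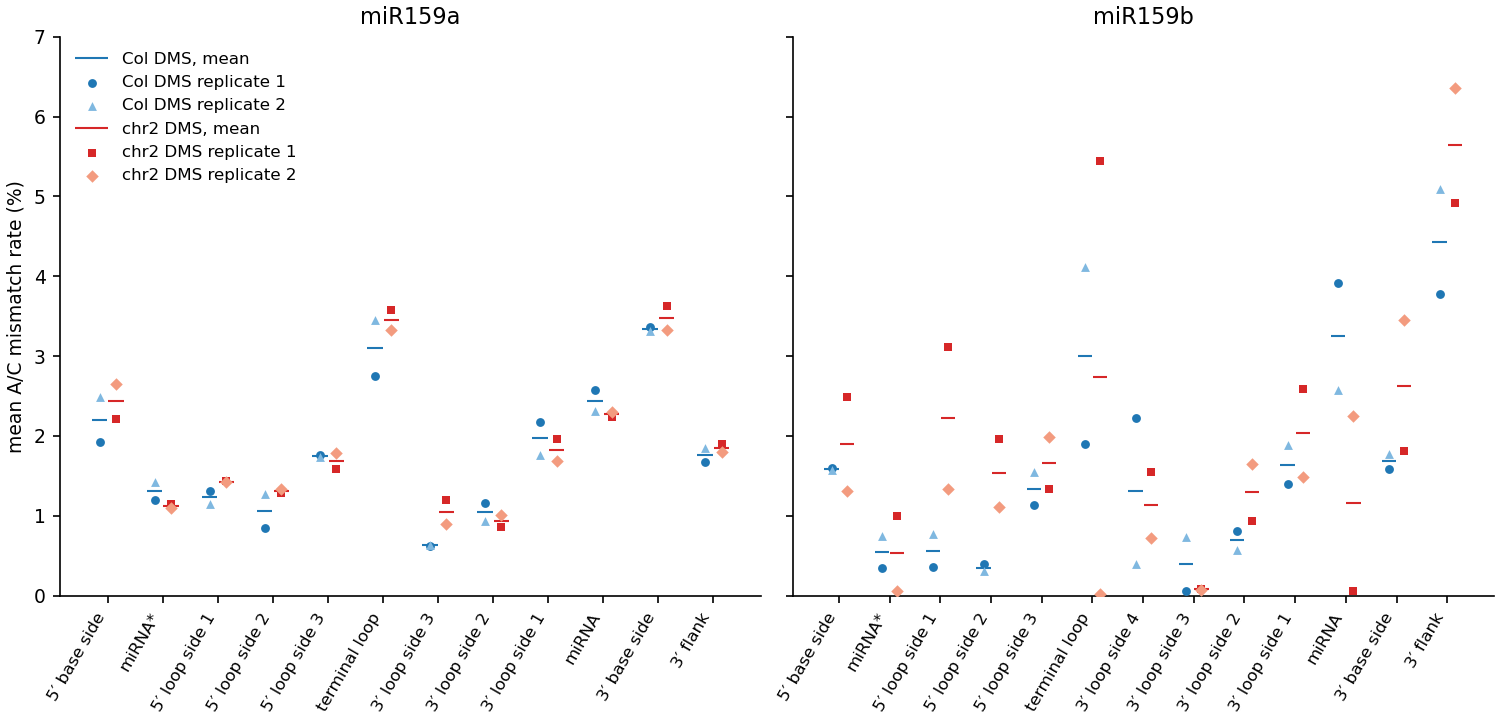
Mean A/C mismatch rate of each region, from the 5′ to the 3′ end, with each DMS library as a point and the genotype mean as a line (n = 2 each); loop side windows 1 to 4 are counted from the miRNA duplex towards the loop, and base side is the 21 nt beyond the duplex. Libraries lie close in miR159a, and in miR159b the terminal loop runs from 0.0204% to 5.45%.

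With DMS, predicted unpaired A and C had higher mean rates than predicted paired ones in both precursors. The mean rate of unpaired over paired A/C positions was 3.89 and 4.46 in Col and 5.40 and 4.59 in chr2 for miR159a (44 unpaired, 64 paired), against 1.22 and 1.4 in the mocks. For miR159b (41 unpaired, 79 paired) the ratio was 2.13 and 3.32 in Col and 2.85 and 2.99 in chr2, against 1.57 and 1.72 in the mocks. The ratio differed between the copies mainly at C, averaging 8.77 in Col and 8.99 in chr2 for miR159a and 2.20 and 2.45 for miR159b. The 32 paired C of miR159b include positions 267 and 285 of its 3′ flank, outside the hairpin. Their rates were 0.201% to 14.1% and 12.4% to 39.5%, so the low ratio rests in part on them. A ratio without these positions was not computed. At A the ratio averaged 3.03 and 3.75 for miR159a and 3.28 and 3.40 for miR159b, so in Col the order of the copies was reversed. Among predicted pairs of miR159a, the 27 positions at the end of a helix averaged 1.12% and the 37 inside one 0.455%, and in miR159b the 31 and 48 averaged 1.60% and 0.907%. The medians were lower, at 0.509% and 0.275% in miR159a and 0.210% and 0.102% in miR159b. Positions of 1 transcript are not replicates, so no test was made between these classes.

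**Figure D5:**
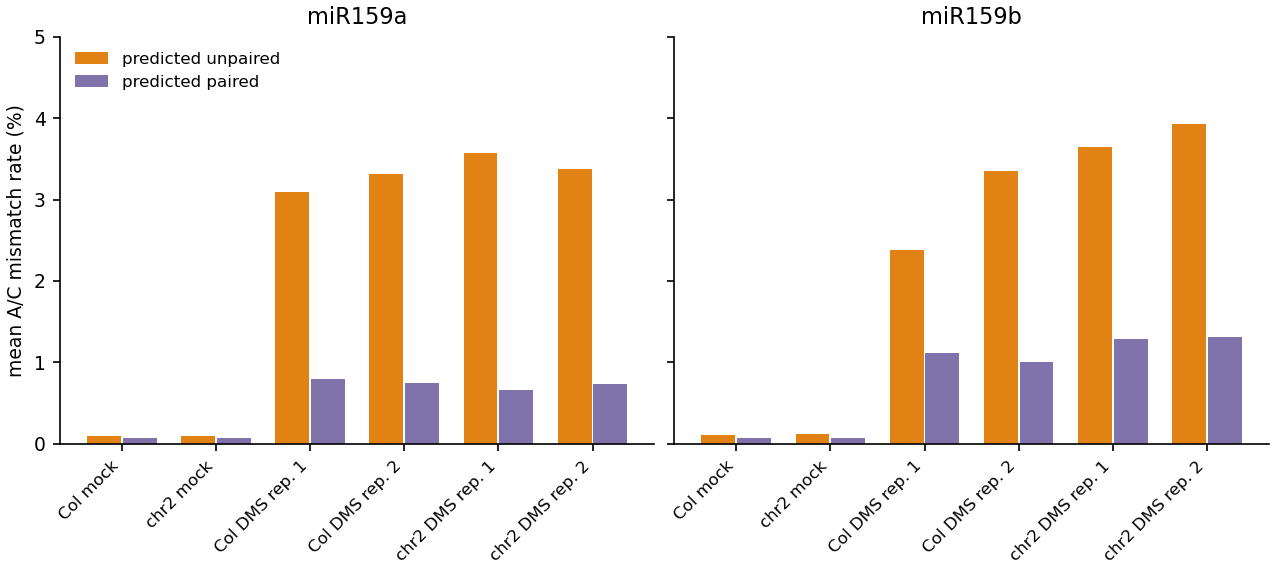
Mean mismatch rate of predicted unpaired and predicted paired A/C positions in each of the 6 libraries, primer ends left out. With DMS the unpaired means are 3.09% to 3.57% in miR159a and 2.38% to 3.92% in miR159b, and the paired means 0.662% to 0.795% and 1.01% to 1.31%.

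Between chr2 and Col, no difference in the mean rate of either precursor passed the test. The mean A/C rate of miR159a was 1.46% and 1.51% in Col and 1.56% and 1.52% in chr2, and the ratio of chr2 to Col after scaling was 1.01 (95% interval 0.824 to 1.23, limma, adjusted p 0.944). For miR159b it was 1.27% and 1.48% in Col and 1.71% and 1.81% in chr2, with a ratio of 1.24 (0.914 to 1.69, adjusted p 0.572). Both intervals include equal rates in the 2 genotypes. That of miR159b leaves more room for a higher rate in chr2 than for a lower one. Both libraries of one genotype lay above both of the other at 33 of 127 positions of miR159a and 51 of 144 of miR159b, beside 32.5% over all A/C positions. By region the genotypes did not overlap in 5 of 12 regions of miR159a and 5 of 13 of miR159b. The smallest p of an exact two-sided permutation of 2 libraries against 2 is 0.33, the share of label orders that separate the groups fully. No region could therefore pass (smallest adjusted p 0.833), and the counts of regions are not read as a difference between genotypes.

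Single positions did not pass the test between genotypes either. EdgeR called 0 positions in both precursors, where it called 0.0% over all amplicons. At an unadjusted p under 0.05 it had 4 of 127 in miR159a and 12 of 144 in miR159b, beside 4.24% of all positions. DESeq2 called 8 in miR159a (6 higher in chr2, 2 lower) and 21 in miR159b (6 higher, 15 lower), beside 11.1% of all. The test of a different response to DMS gave 0 by edgeR, beside 0.0% of all positions. At an unadjusted p under 0.05 it had 7 of 127 in miR159a and 10 of 144 in miR159b, with no share over all positions counted. By DESeq2 it gave 0 in miR159a and 7 in miR159b, all lower in chr2, beside 2.04% of all positions.

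The 3 smallest p-values in miR159b were at positions 35, 185 and 34, of which 34 and 35 are neighbouring A just 5′ of the miRNA*. Position 35 had 6.03% and 3.10% in Col and 0.0383% and 0.0381% in chr2, with mocks of 0.0426% and 0.0402%. Position 34 had 4.94% and 2.05% in Col and 0.0490% and 0.0513% in chr2. Position 185, a C on the 3′ arm, had 7.31% and 3.65% in Col and 0.0666% and 0.0891% in chr2. All 3 were high in both Col libraries and at the mock level in both chr2 libraries, and their log2 differences of −6.93, −6.15 and −6.17 had adjusted p of 0.254, 0.267 and 0.267 by edgeR. DESeq2 called all 3, with adjusted p of 1.7e-31 at position 35, 2.6e-19 at position 34 and 3.7e-23 at position 185. The reverse order was seen at position 95, a C predicted unpaired on the 5′ arm. It had 0.0527% and 0.729% in Col and 6.74% and 6.99% in chr2 (adjusted p 0.721 by edgeR and 0.0153 by DESeq2). Swings as large occurred between replicates: position 73 had 18.5% in chr2 replicate 1 and 0.0990% in replicate 2, and position 31 had 17.1% and 0.0316%. Whether such library-to-library differences account for the genotype differences at positions 34, 35, 95 and 185 was not tested.

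In miR159a the positions with the smallest p for higher rates in chr2 were low in all libraries. Position 128 in the terminal loop had 0.0184% and 0.0246% in Col and 0.265% and 0.140% in chr2 (edgeR, adjusted p 0.295). Position 240 had 0.0291% and 0.0224% in Col and 0.229% and 0.374% in chr2 (edgeR, adjusted p 0.343). Against mock, position 240 passed in chr2 but not in Col (edgeR, adjusted p 0.0394 and 0.425). DESeq2 called both positions between genotypes, with adjusted p of 8.4e-06 at position 128 and 8.7e-08 at position 240. In the other direction, position 29 had 1.01% and 0.799% in Col and 0.438% and 0.305% in chr2. Position 187 had 0.412% and 0.467% against 0.0575% and 0.189%, and position 156 reached 1.08% in 1 Col library alone. DESeq2 called positions 29 and 156 in that direction (adjusted p 0.0452 and 0.0227). The largest differences between replicates of 1 genotype in miR159a were far smaller than in miR159b: position 31 had 2.70% and 7.61% in Col, position 182 had 8.56% and 3.96%, and position 80 had 4.47% and 9.05%.

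G and T positions, which DMS marks little in this readout, served as the background of the test. EdgeR called 0 of 159 in miR159a and 0 of 171 in miR159b in either genotype, beside 0.0% of all G/T positions. At an unadjusted p under 0.05, in either direction, there were 8 and 11 in Col and 11 and 7 in chr2. No share over all G/T positions was counted at that level. DESeq2 called 1 and 3 in Col and 5 and 2 in chr2, beside 1.76% and 1.69% overall. Mean rates at G and T inside the primer ends were 0.115% to 0.134% with DMS in miR159a and 0.0653% to 0.250% in miR159b, where A and C averaged 1.73% to 1.85% and 1.55% to 2.20%. Single T of miR159b nevertheless reached 10.3% (position 258), 9.46% (position 250) and 4.83% (position 46, in the miRNA*), each in chr2 replicate 2. Other G and T of miR159b were high in a Col library: T at position 242 (3.78%) and G at position 81 (2.95%) in replicate 1, and T at position 187 (1.97%) in replicate 2. Modified A of miR159a was read as T in 68.6% to 72.5% of mismatches and modified C as T in 53.4% to 64.3%. In miR159b the shares were 60.2% to 73.9% for A and 28.1% to 70.1% for C, with the low value in chr2 replicate 1, where 67.2% of the mismatches at C were A.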

How the data were processed

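Per the file headers, the authors deposited counts of calls of each base along 19 amplicons in 6 libraries. SAMtools 1.5, Picard, BWA and cutadapt appear in the submitters' processing notes, without roles or build, so positions are those of the amplicon. Per the labels' protocols, 5 µg of nuclear RNA was copied with gene-specific primers and the products cut to 50 to 200 bp.

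Positions entered tests with coverage of at least 100, mock rates of at most 5% and 10 mismatches. EdgeR 4.0.16 (R 4.3.3) tested mismatch counts over all amplicons with log coverage as offset, and for genotypes a size factor, the median ratio of rates (0.966 to 1.02). Its average abundance used mismatch totals, the default. The adjusted p threshold was 0.05. DESeq2 1.42.0 was the alternative and limma 3.58.1 tested mean rates, adjusted over the 19 amplicons. Both count tests were tested on simulated data with 200 changed positions. The spread between simulated replicates was fixed beforehand and not taken from these libraries, so the outcome is not used for any result here. Folds came from ViennaRNA 2.7.2 and the alignment from Biopython 1.88 (match 5, mismatch −4, gap open 10, extend 0.5). The miRNA was taken as the 21 nt ending 1 base after the longest shared run of the 3′ arms, and its pairing partners as miRNA*. Python 3.11.15, SciPy 1.17.1 and matplotlib 3.10.9 were also used.

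Named positions are the 10 called ones with the highest mean per precursor, their counterparts in the other copy, called duplex positions, the 3 smallest p per direction between genotypes and the 3 largest replicate differences. Position 105 and the other unlisted positions, among them 49, 103, 219, 46, 81, 187, 242, 250 and 258, were chosen after their values were seen. Members and rules were chosen with earlier results of these data known.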

Additional observations from a re-analysis of the deposited data

Results flagged for a closer look

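At 5 named positions the DMS libraries of one genotype lay above their mock and those of the other below it, in every library; for each the difference of mean rates, chr2 minus Col, follows in percentage points. It was −4.52 at position 35 of miR159b and −5.40 at position 185, where both chr2 libraries were at or under 0.0891%. In edgeR's test of the difference of responses, the adjusted p was 0.726 at position 35 and 0.746 at position 185, whereas DESeq2 gave 0.000296 and 0.00271. At position 95 of miR159a the difference was 0.297, at position 182 of miR159b 0.0297 and at position 317 of miR159b, near the primer, 0.00675. The adjusted p of the same edgeR test was 0.999 at each of these 3 positions. At position 182 of miR159b every DMS rate was near the mocks, at 0.0154% to 0.0547% against 0.0410% and 0.0431%. The same held at position 317, with 0.00273% to 0.0122% against 0.0104% and 0.00722%. All 5 positions had been named for the smallest p between genotypes.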

How the results depend on the processing

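The number of positions above mock depended on the tool. DESeq2 gave 63 (Col) and 64 (chr2) in miR159a and 44 and 37 in miR159b. EdgeR gave 0 in all 4 cases with a median-ratio size factor, with library totals from coverage (an alternative chosen after seeing the data) and without each DMS library in turn (0 to 0). A mock limit of 1% gave 2 in miR159b for chr2. Columns above mock in both copies were 3 by a rate of 1% or of 0.5% in all 4 DMS libraries, and 0 to 0 without each library. DESeq2 gave 8 and 21 positions differing between genotypes, 7 with a different response in miR159b, and 1, 5, 3 and 2 G/T calls. The mean-rate ratio of miR159a turned below 1 with a size factor from the mRNAs (0.919) and spanned 0.973 to 1.03 without each library; that of miR159b spanned 1.13 to 1.36. The unpaired over paired ratio moved to 3.29 (Col) and 3.93 (chr2) in miR159a and 2.53 (chr2) in miR159b with the ends kept, to 4.65 (miR159a, Col) and 3.39 (miR159b, chr2) with the partition-function fold, and to 2.37 (miR159b, chr2) folded without the ends. With A alone it was 3.03, 3.75 and 3.40 and with C alone 8.77, 8.99 and 2.45 for the same 3 cases. It spanned 3.89 to 4.46 and 4.59 to 5.40 in miR159a and 2.13 to 3.32 and 2.85 to 2.99 in miR159b without each library. The causes were not tested. With the replicate number as a block, 0 positions differed and the ratios stayed at 1.01 and 1.24 (limma, adjusted p 0.975 and 0.910). Same-numbered libraries did not deviate together (r = 0.0318 over 2594 positions), so the numbers were not taken as a pairing. The median over positions in place of the mean moved most region values, for example the miRNA of miR159a from 2.36% to 0.403%. Each genotype had 1 mock and 2 DMS libraries, which limits the precision of every comparison.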
